A study of Mus musculus with 24 samples.

Results

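Gzmc, Gzmd, Gzme, Gzmf and Gzmg, which encode granzymes, and Mcpt8, which encodes a mast cell protease, were followed across 24 RNA-seq libraries of mouse marrow-derived mesenchymal stem cells (MSC). These 6 of 25385 genes belong to the granzyme and mast cell protease locus and were chosen by their high signal in undifferentiated cells, and each was taken from the deposited tables by its symbol. MSC are cultured stromal cells of the bone marrow that can form bone-forming osteoblasts and fat cells. The 8 groups of 3 libraries combined 4 states with 2 treatments. The states were undifferentiated cells in growth medium (day 0), osteogenic medium with β-glycerophosphate and ascorbic acid for 7 or 15 days, and adipogenic medium with insulin, indomethacin and dexamethasone for 7 days. In each state cells received either 100 nM 1,25(OH)2D3 (VD3), the hormonal form of vitamin D, or its ethanol vehicle for 24 hours before harvest. All cells were expanded from one described source of frozen MSC, with no strain, age or genotype in the labels, so the groups share that origin. Nothing in the labels says that the replicates were separate cultures, and p-values therefore measure only the spread between these libraries.

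Granzymes are serine proteases that cytotoxic T cells and natural killer (NK) cells store in granules and release onto target cells. Granzymes A and B are the best known for killing, while the mouse has further close copies, Gzmc to Gzmg, that lie together with the chymase genes of mast cells. Mcpt8 encodes a protease of this family that is known as a marker of mouse basophils. Some granzymes are also known to cut proteins of the extracellular matrix. 1,25(OH)2D3 acts through the nuclear receptor Vdr, which binds DNA together with an Rxr partner.

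The upstream sequences are shown first because they place the granzymes, of which Gzme and Gzmd are the closest pair shown, beside Mcpt8, the gene of a different subfamily. Each line gives the 250 bases before the RefSeq start site (build GRCm38.p6, minus strand, 5′ to 3′), and capitals mark the core of the RUNX motif, TGTGGT, on either strand. The windows lie at chr14:56120626-56120875 for Gzme, chr14:56132594-56132843 for Gzmd, chr14:56234658-56234907 for Gzmc and chr14:56085198-56085447 for Mcpt8.
Gzme: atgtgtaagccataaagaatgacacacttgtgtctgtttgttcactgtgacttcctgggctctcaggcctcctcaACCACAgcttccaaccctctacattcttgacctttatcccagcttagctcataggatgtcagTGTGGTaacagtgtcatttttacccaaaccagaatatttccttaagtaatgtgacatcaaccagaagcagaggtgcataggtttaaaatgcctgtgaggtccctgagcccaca
Gzmd: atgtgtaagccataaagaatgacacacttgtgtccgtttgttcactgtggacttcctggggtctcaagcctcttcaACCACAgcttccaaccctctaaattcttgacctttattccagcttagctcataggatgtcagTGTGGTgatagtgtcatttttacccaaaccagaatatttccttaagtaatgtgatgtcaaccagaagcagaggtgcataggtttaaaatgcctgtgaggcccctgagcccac
Gzmc: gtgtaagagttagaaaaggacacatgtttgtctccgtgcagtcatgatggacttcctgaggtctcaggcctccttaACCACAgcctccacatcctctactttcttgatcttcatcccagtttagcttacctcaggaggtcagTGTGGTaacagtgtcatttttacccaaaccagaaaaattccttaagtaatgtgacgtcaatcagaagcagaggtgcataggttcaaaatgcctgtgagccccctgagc
Mcpt8: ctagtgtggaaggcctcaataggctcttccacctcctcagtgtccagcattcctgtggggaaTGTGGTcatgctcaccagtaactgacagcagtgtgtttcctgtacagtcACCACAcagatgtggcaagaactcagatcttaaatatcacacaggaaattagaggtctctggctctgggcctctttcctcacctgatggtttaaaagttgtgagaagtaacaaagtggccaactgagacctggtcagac

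The upstream windows of Gzme and Gzmd, neighbouring genes, were 93.4% identical over the 300 bases from 250 before to 50 after the start, and their transcripts 90.4%. Gzmc was more distant, at 71.4% transcript identity with Gzme and 70.3% with Gzmd, and Gzme and Mcpt8 shared no stretch of 50 transcript bases. All 6 windows of 300 bases held 2 matches to the RUNX core, while 16.8% of 32851 RefSeq windows of that length held at least 1 and 1.81% held at least 2. The 5 granzyme windows were 74.6 to 93.4% identical to each other, so matches in them are not independent. In Gzme the matches began at positions -175 and -113 relative to the start, in Mcpt8 at -188 and -139. The 5 granzyme windows also shared a run of 20 bases, gaagcagaggtgcataggtt, that was found in no other window and not in Mcpt8. Of the other motifs searched on both strands, AP-1 (TGANTCA), STAT (TTCNNNGAA) and TATA box (TATAAA) letters had no match in the 6 windows, against 7.81%, 8.3% and 13.6% of all windows. E-box letters (CANNTG) were in 5 of 6 windows and in 72.3% of all, and the GATA motif in 2 of 6 (Gzmd and Gzmg) and in 29.8% of all. Of 2 searches added after the data were seen, TGACGTCA (CRE) was found in 3 windows (Gzmc, Gzmf and Gzmg) and in 1.79% of all, and the direct-repeat vitamin D response element in none of the 6 and in 0.0396% of all. A match describes letters in these windows only. Predicted RefSeq transcripts of Gzmc and Mcpt8 start further upstream than the sites used.

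The similarity of the granzymes bears on how their reads can be assigned. Of the 50-base stretches of a transcript, 21.9% in Gzmd, 20.6% in Gzme, 19.8% in Gzmg, 7.4% in Gzmf and 4.1% in Gzmc also occurred in another of the 6 genes or in Gzmn. For Mcpt8 it was 0 of 787 stretches. How reads that fit several copies were counted is not given in the sources used here, so the values of the low granzymes beside the abundant Gzme are uncertain.

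Values are in RPKM (reads per kilobase of transcript, scaled to the mapped reads of the library) as mean ± SD over n = 3 libraries. The depth estimated from the smallest values was 7.13 to 47.3 M reads a library, at which 3 reads on 1 kilobase correspond to 0.0634 to 0.421 RPKM. Of the 6 day 0 libraries, 5 stood apart, with an estimated 7.13 to 10.99 M reads and a median of 3.35 to 5.01 RPKM on 1126 olfactory receptor genes, a family known to be silent outside sensory tissue. That median was 0.414 RPKM in the sixth (VD3, replicate 2, 38.5 M reads) and 0.184 to 1.25 RPKM in the 18 differentiated libraries. The 95th percentile of these receptor genes in the same library was used as a background level for each value.

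Undifferentiated cells held high levels of 2 of the 6 genes, Gzme and Mcpt8. Day 0 signal chose the genes, so the day 0 values are a description without a test. Gzme, a granzyme of activated cytotoxic cells, measured 172, 158 and 153 RPKM in the 3 vehicle libraries (161 ± 9.65) and 300.9, 314 and 289.9 RPKM with VD3 (301.5 ± 11.8). It ranked between 376 and 417 among all genes with vehicle and between 209 and 227 with VD3. Every VD3 library was above every vehicle library, and the ratio of the means was 1.87.

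Mcpt8 measured 50.2, 59.6 and 65.2 RPKM at day 0 with vehicle (58.3 ± 7.61) and 175, 179 and 181 RPKM with VD3 (179 ± 3.16). The treated libraries were again all higher, with a ratio of means of 3.06. Gzmc, a granzyme known to kill target cells without the caspases, was 6.48 ± 1.80 RPKM with vehicle and 16.2 ± 2.43 with VD3, and its libraries did not overlap (8.46, 4.96 and 6.01 against 17.5, 13.4 and 17.7). The ratio of its means was 2.5.

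Gzmd, the copy closest to Gzme, showed 11.96, 10.2 and 9.74 RPKM with vehicle (10.6 ± 1.17) and 13.2, 12.1 and 12.9 with VD3 (12.7 ± 0.596). Its 3 treated libraries were above the 3 untreated ones by a narrow margin, at a ratio of 1.196. Gzme was 14.4 to 15.8 times Gzmd in the vehicle libraries and 22.4 to 26.0 times in the VD3 libraries. The low Gzmd values lie on an unequal background. The median of the olfactory receptor genes was 3.46 to 5.01 RPKM with vehicle and 0.414 to 4.52 with VD3. With that median subtracted, the log2(RPKM + 1) difference of Gzmd was 0.58, against 0.24 without. The size of the Gzmd response and its ratio to Gzme therefore depend on the background. Gzme over Mcpt8 was lower with VD3, at 2.35 to 3.42 with vehicle and 1.60 to 1.75 with VD3.

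Gzmf and Gzmg did not stand out at day 0. Gzmf measured 3.11, 0.905 and 4.79 RPKM with vehicle and 2.10, 0 and 0.448 with VD3. Gzmg measured 3.37, 3.05 and 0.771 RPKM with vehicle and 1.60, 0.057 and 1.57 with VD3. Both stayed under the 95th percentile of the olfactory receptor genes in 24 of 24 libraries, and at day 0 they were above at most 47.4% and 42.1% of those genes. Their choice as genes with high day 0 signal is therefore not borne out by these values. The group means of Gzmf (2.94 ± 1.95) and Gzmg (2.40 ± 1.42) with vehicle were both below those of 5 of the 10 locus genes outside the set, which were Cma1 (7.35 ± 2.16), Cma2 (6.63 ± 3.16), Mcpt2 (4.37 ± 1.18), Gzmn (3.91 ± 1.97) and Mcpt9 (3.35 ± 1.02), and Gzmg was also below Gzmb and Mcpt1.

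**Figure D1:**
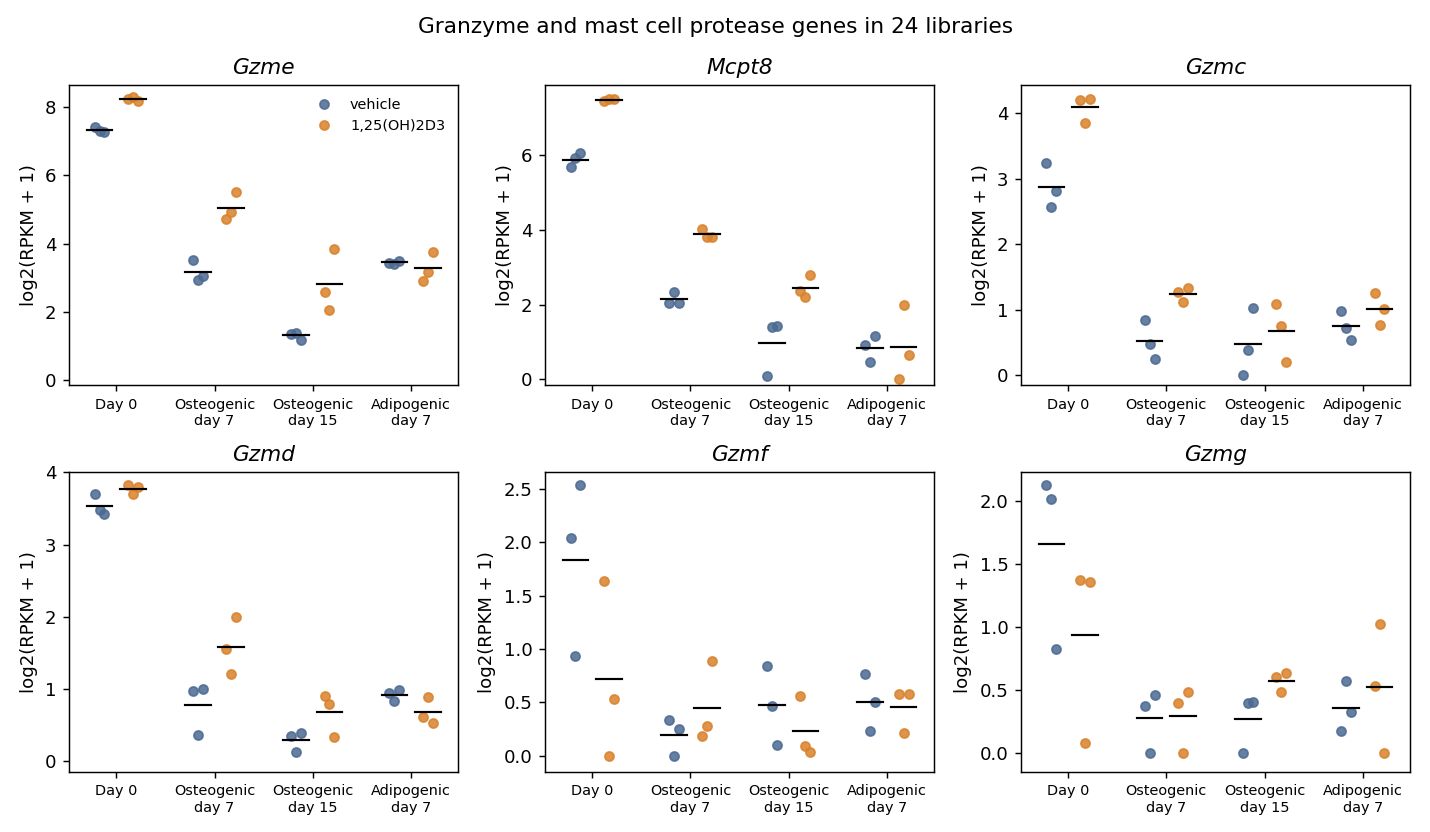
Level of each of the 6 genes as log2(RPKM + 1) on the vertical axis (each panel has its own scale), by state on the horizontal axis; points are single libraries (blue vehicle, orange VD3) and black lines the mean of 3. Gzme and Mcpt8 are highest at day 0 and lie higher with VD3 in the osteogenic states, while the adipogenic points overlap.

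Against the background, Gzme exceeded the 95th percentile of the olfactory receptor genes in 6 of 6 day 0 libraries and 17 of 18 differentiated ones. Mcpt8 did so in 6 of 6 and 11 of 18, with 0 of the 6 adipogenic libraries among them. Gzmd exceeded it in 5 of 6 day 0 libraries and 2 of 18 others. Gzmc did so in 3 of 6, the VD3-treated ones, and in 2 of 18 others. Levels of Gzmc and Gzmd in differentiated cells are therefore mostly within the range of genes regarded as silent.

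**Figure D2:**
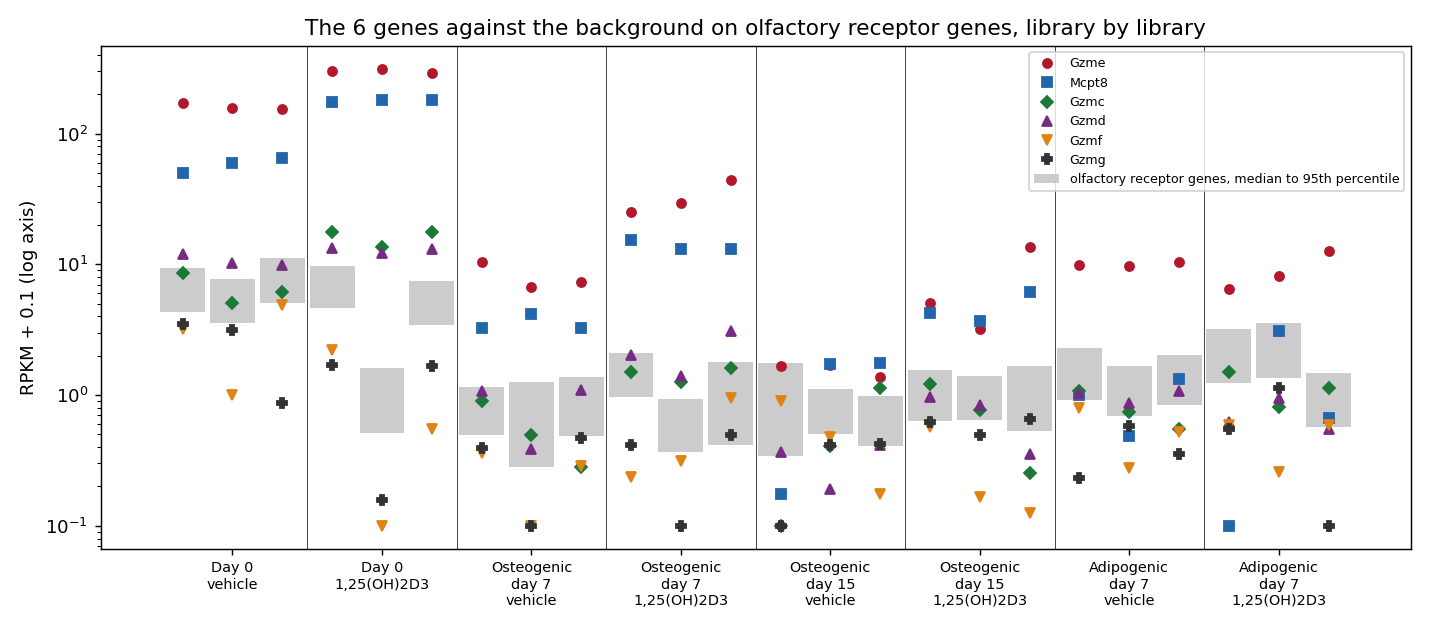
Values of the 6 genes in each of the 24 libraries (RPKM + 0.1, log axis; libraries in groups of 3 along the horizontal axis), with grey bars from the median to the 95th percentile of olfactory receptor genes in the same library. Gzme lies above the grey bars in all but 1 library, an osteogenic day 15 vehicle library, and the bars are highest in 5 of the 6 day 0 libraries.

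All 6 genes were lower in each differentiated state than at day 0 with vehicle, with no overlap between libraries. As the rule used day 0, this is described without a test, and of all 21097 tested genes 51.5% were lower without overlap at osteogenic day 7, 54.2% at osteogenic day 15 and 66.9% at adipogenic day 7 (50.4%, 53.4% and 65.5% were called lower by adjusted p). Gzme was 8.07 ± 1.99 RPKM at osteogenic day 7 (10.3, 6.66 and 7.19), 1.48 ± 0.175 at osteogenic day 15 (1.56, 1.59 and 1.27) and 9.91 ± 0.374 at adipogenic day 7 (9.78, 9.62 and 10.3). Differences are given on the log2(RPKM + 1) scale, on which low values move less than their ratio, and Gzme differed from day 0 by -4.18, -6.03 and -3.89. Mcpt8 was 3.46 ± 0.535 RPKM, 1.13 ± 0.914 and 0.836 ± 0.426 in the same order, a log2 difference of -3.73, -4.91 and -5.03. The median log2 difference of the 6 genes at osteogenic day 7 was -2.55, beside -0.46 over all tested genes. The size of the difference at osteogenic day 7 depended on the processing for the low genes. Gzmf differed by -1.64 and Gzmg by -1.38, but by -0.61 and -0.34 after quantile normalization and by -0.27 and -0.65 between VD3-treated libraries, and neither passed the filter with a background subtracted. Gzmc differed by -2.35, and by -1.32 with a background subtracted. These 3 comparisons share the day 0 vehicle libraries. From bulk RNA, fewer cells that express a gene and less RNA per cell cannot be told apart.

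VD3 raised Gzme and Mcpt8 in osteogenic cells at day 7, the comparison with the most calls among the 6 genes. Gzmd was called too, under a limit set by the filter. A gene is said to rise or fall where its Benjamini-Hochberg adjusted p over all 21097 genes in limma was under 0.05. Counts are given out of 6, but Gzmf and Gzmg passed the filter only through day 0 values, which the rule used. Their tests therefore add nothing, and 4 genes remain on differentiated libraries alone. Of these 4, Gzmd reached 1 RPKM in differentiated cells only in the 3 VD3 libraries of osteogenic day 7. That is the group where it was called higher, so its call there is not independent of the filter. Other comparisons of Gzmd with that group carry the same limit. Gzme measured 25.1, 29.2 and 44.3 RPKM with VD3 (32.9 ± 10.1) against 8.07 ± 1.99 with vehicle, a ratio of 4.08. All treated libraries were higher, and the log2 difference was 1.88 (SE 0.31, limma adjusted p = 0.000576). Mcpt8 measured 15.4, 13.1 and 13.02 RPKM with VD3 (13.8 ± 1.33) against 3.15, 4.07 and 3.14 with vehicle, a ratio of 4.0. Its log2 difference was 1.74 (SE 0.37, limma adjusted p = 0.00592). With a pseudocount of 0.1 in place of 1 that p was 0.284, and over its alternatives it ranged from 0.000493 to 0.284.

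Gzmd measured 1.93, 1.30 and 2.98 RPKM with VD3 (2.07 ± 0.845) against 0.968, 0.289 and 0.999 with vehicle (0.752 ± 0.401). The log2 difference was 0.80 (SE 0.21, limma adjusted p = 0.0223). This call was lost in 7 of 17 alternatives, among them leaving out vehicle replicate 2 (adjusted p = 0.179), VD3 replicate 1 (0.0596) or VD3 replicate 3 (0.151), over a range of 0.00789 to 0.179. Gzmc had 1.36 ± 0.174 RPKM with VD3 and 0.459 ± 0.314 with vehicle, without overlap, and did not pass (log2 difference 0.71, limma adjusted p = 0.141). In all, 3 of 6 genes rose, Gzmd under the filter limit above, and 0 fell. Of all tested genes 2.91% rose and 2.35% fell. The median log2 difference of the 6 genes was 0.76, beside 0.07 over all genes. Gzmf and Gzmg overlapped between the treatments.

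At osteogenic day 15 VD3 raised Gzme alone among the 6, where 0.526% of all genes rose and 0.246% fell. Its libraries measured 4.97, 3.12 and 13.4 RPKM with VD3 (7.16 ± 5.47) and 1.56, 1.59 and 1.27 with vehicle. The third VD3 library was far above the other two, yet all 3 exceeded every vehicle library. The log2 difference was 1.52 (SE 0.31, limma adjusted p = 0.0204). The call was lost without any 1 of the 3 vehicle libraries (adjusted p = 0.0852, 0.0673 and 0.0964 without replicates 1, 2 and 3) and in a fit on only the libraries compared (0.232), with a range of 0.00127 to 0.232 over its alternatives. Mcpt8 measured 4.14, 3.58 and 6.01 RPKM with VD3 (4.57 ± 1.27) and 0.075, 1.65 and 1.67 with vehicle. Its groups did not overlap, at a log2 difference of 1.48 with a limma adjusted p of 0.0848. The lowest vehicle library holds an estimated 2 reads of Mcpt8.

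In adipogenic cells at day 7 none of the genes was called with VD3. Gzme measured 6.43, 8.02 and 12.6 RPKM with VD3 (9.0 ± 3.18) and 9.78, 9.62 and 10.3 with vehicle (9.91 ± 0.374), and the treated libraries lay on both sides of the untreated ones. Its log2 difference was -0.17 with a 95% interval of -0.82 to 0.48. Mcpt8 was listed at 0 in 1 treated library and measured 2.98 and 0.571 RPKM in the others, against 0.897, 0.383 and 1.23 with vehicle, with an interval of -0.74 to 0.81. By limma, 0 of the 4 genes that pass the filter on differentiated libraries alone changed, each with an adjusted p of 1, and 0 had an unadjusted p under 0.05, while 1.51% of all tested genes rose and 0.574% fell in this state.

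The VD3 response itself was then compared between states. For Gzme the log2 response at adipogenic day 7 was below that at osteogenic day 7 by a difference of -2.06 (SE 0.44, 95% interval -2.98 to -1.13, limma adjusted p = 0.0155). Without osteogenic day 7 vehicle replicate 2 it was -1.94 with an adjusted p of 0.0527, the only 1 of 23 alternatives in which it did not pass (range 0.00518 to 0.0527). Mcpt8 differed by -1.71 and Gzmd by -1.04 in the same direction without passing (limma adjusted p = 0.133 and 0.0771). So 1 of 6 genes had a smaller response and 0 a larger one, beside 0.853% and 0.967% of all genes. Between osteogenic day 15 and day 7 none of the responses of the 4 genes that pass on differentiated libraries differed by limma (lowest adjusted p = 0.987, 0 of 4 with an unadjusted p under 0.05), where 0.0521% of all genes had a larger and 0.133% a smaller response. The 95% interval of that difference for Gzme was -1.29 to 0.56.

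The response at day 0 is given beside these as a description. On the log2 scale it was 1.61 for Mcpt8, 1.22 for Gzmc, 0.90 for Gzme and 0.24 for Gzmd, and 4 of 6 genes had higher treated libraries without overlap, as had 7.91% of all genes. By adjusted p, 3.98% of all genes were called higher and 11% lower. Only 1 VD3 library at day 0 had the low background described above, and that library, replicate 2, measured 314 RPKM for Gzme, 179 for Mcpt8, 13.4 for Gzmc and 12.1 for Gzmd, close to the other two.

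**Figure D3:**
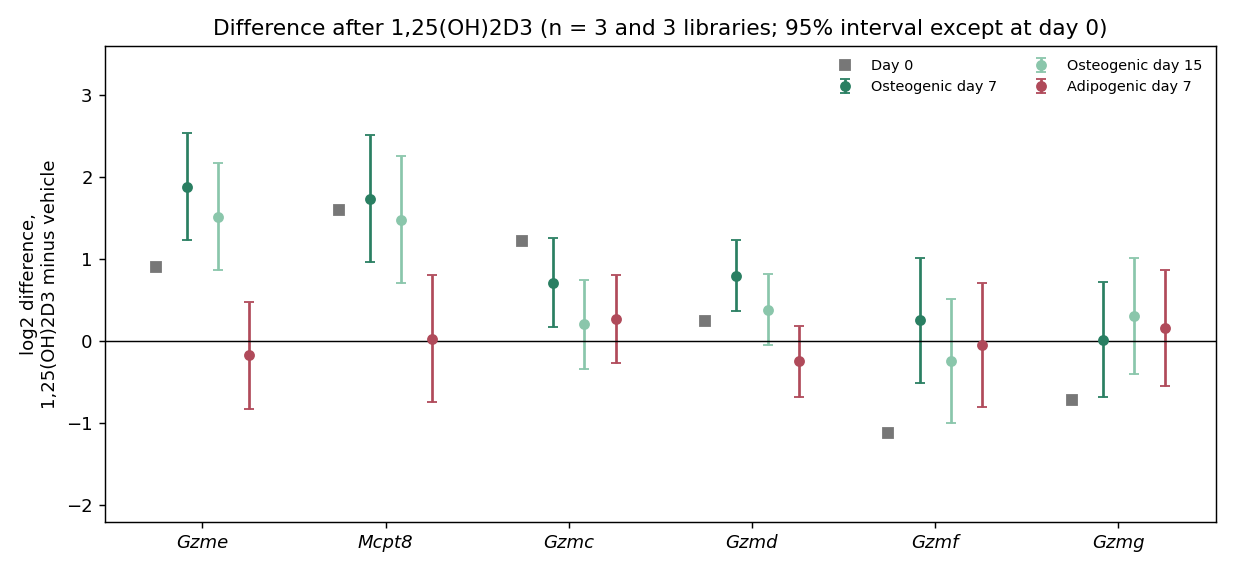
Difference between VD3 and vehicle on the log2(RPKM + 1) scale (vertical axis) for the 6 genes, by state; points are differences of means over 3 and 3 libraries, bars are 95% intervals of the fit, and grey squares (day 0) have none because day 0 signal chose the genes. Gzme and Mcpt8 lie above 0 in both osteogenic states and near 0 in adipogenic cells.

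Among the differentiated vehicle groups the genes went separate ways. From osteogenic day 7 to day 15 Gzme fell from 8.07 ± 1.99 to 1.48 ± 0.175 RPKM, a log2 difference of -1.85 (SE 0.31, limma adjusted p = 0.000309) that passed in 18 of 18 alternatives. Mcpt8 fell by 1.17 on the log2 scale (SE 0.37, limma adjusted p = 0.0403). Its call was lost without any of the 3 day 7 libraries (adjusted p = 0.0784, 0.139 and 0.0799 in order of replicate) or without day 15 replicate 1 (0.242), with a range of 0.00973 to 0.242. In this comparison 2 of 6 genes fell and 0 rose, beside 6.47% and 6.87% of all genes.

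Adipogenic cells kept Gzme near its osteogenic day 7 level and had less Mcpt8. Mcpt8 was lower at adipogenic than at osteogenic day 7 (0.836 ± 0.426 against 3.46 ± 0.535 RPKM), with a log2 difference of -1.30 (SE 0.37, limma adjusted p = 0.00757). With a pseudocount of 0.1 the adjusted p was 0.0794, and it ranged from 1.07e-06 to 0.0794. Gzme differed by 0.29 (95% interval -0.36 to 0.94, limma adjusted p = 0.558), and its libraries overlapped. With VD3-treated libraries in place of vehicle, Gzme was lower in adipogenic cells by a log2 difference of -1.77 (limma adjusted p = 9.56e-05) and Gzmd by one of -0.91 (0.00106). With vehicle 1 of 6 genes was lower and 0 higher, where 25.4% of all genes were lower and 12.4% higher.

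Compared with osteogenic day 15, adipogenic cells had more Gzme (9.91 ± 0.374 against 1.48 ± 0.175 RPKM), a log2 difference of 2.14 (SE 0.31, limma adjusted p = 9.12e-06). Gzmd was also higher, at 0.930, 0.772 and 0.977 RPKM against 0.268, 0.092 and 0.314 (log2 difference 0.63, limma adjusted p = 0.0179). That call was lost with a background subtracted (0.482) and without osteogenic replicate 2 (0.075) or adipogenic replicate 3 (0.0567). With VD3-treated libraries the Gzme difference was 0.45 and did not pass (adjusted p = 0.298), and the Gzmd difference was 0.002 (0.996). With vehicle 2 of 6 rose and 0 fell, beside 12.1% and 26.3% of all genes. The comparisons among these 3 vehicle groups share libraries. In order of the vehicle means, Gzme ran from day 0 through adipogenic and osteogenic day 7, which did not differ beyond their spread, to osteogenic day 15. For Mcpt8 the order was day 0, osteogenic day 7, then osteogenic day 15 and adipogenic day 7, the last of which were not told apart with vehicle (limma adjusted p = 0.847). With VD3-treated libraries Mcpt8 was lower in adipogenic cells than at osteogenic day 15 (log2 difference -1.57, limma adjusted p = 0.00164).

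The other proteases of the locus were low beside Gzme and Mcpt8 at day 0. RefSeq places the protein-coding genes in the order Cma1, Cma2, Mcpt1, Mcpt2, Mcpt9, Mcpt4, Mcpt8, Ctsg, Gzme, Gzmd, Gzmg, Gzmn, Gzmf, Gzmc and Gzmb, so the 2 abundant genes are separated by Ctsg, the cathepsin G gene of neutrophils. Ctsg measured 1.32 ± 0.658 RPKM at day 0 with vehicle and 1.38 ± 0.621 with VD3. Gzmb, the main killing granzyme at the far end, measured 2.58 ± 0.614 and 2.19 ± 0.675 (both genes named after their values were seen). The 10 other proteases of the locus summed to 27.9 to 43.0 RPKM in the day 0 vehicle libraries, 14.8 to 30.9 with VD3, and 1.26 to 7.02 in the 18 differentiated libraries. None of the 10 was called with VD3 in a differentiated state. Among them Gzmb, Mcpt1, Ctsg and Mcpt4 passed the filter only through day 0 libraries. In the differentiated libraries they reached at most 0.931, 0.938, 0.698 and 0.602 RPKM, so their tests add nothing. The same holds for Mcpt9. Among differentiated groups it reached 1 RPKM only in adipogenic cells with VD3 (0.24 to 1.53), in too few libraries for the filter. Mcpt2 (log2 difference 0.84, limma adjusted p = 0.0397) was the 1 called against osteogenic day 7 in adipogenic cells, and the pseudogene Mcpt-ps1 (0.80, 0.0418) the 1 called against osteogenic day 15. Of all genes 12.4% and 12.1% were higher in these comparisons. With vehicle Mcpt2 measured 0.62 to 1.92 RPKM in adipogenic and 0 to 0.613 in osteogenic day 7 cells. Mcpt-ps1 measured 0.101 to 1.59 in adipogenic and 0 to 0.073 in osteogenic day 15 cells. In the adipogenic vehicle libraries 0 of 30 values of the list exceeded the background level, so both calls rest on values within the background.

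**Figure D4:**
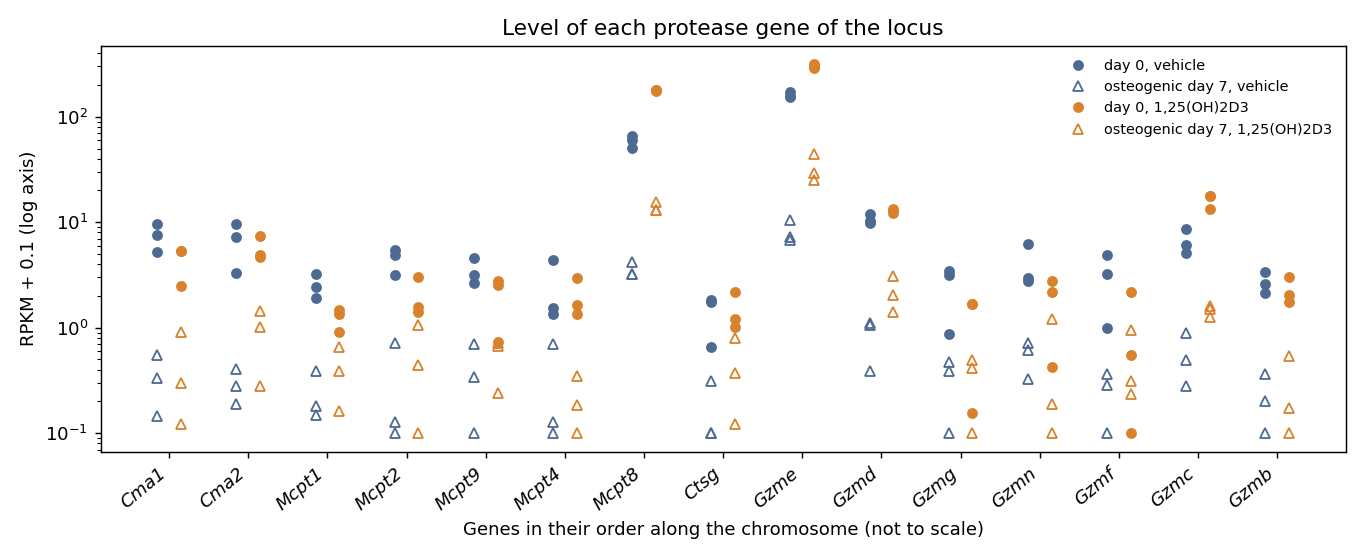
Levels of the protease genes in their order along the chromosome (horizontal axis, not to scale; RPKM + 0.1 on a log axis), with points for single libraries at day 0 (filled circles) and osteogenic day 7 (open triangles). Mcpt8 and Gzme stand above their neighbours, and Ctsg between them is near 1 RPKM.

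Genes that store, activate or inhibit granzymes were examined from general lists. Of 14 genes of granule storage and protease activation, 12 passed the filter and none changed with VD3 in the differentiated states. Lamp1, a lysosomal membrane protein, and Ctsl, a lysosomal protease, were abundant throughout (349.7 and 159 RPKM over all libraries). Ctsh, a cathepsin that can process granzyme B, fell from 23.4 ± 2.77 RPKM at osteogenic day 7 to 10.6 ± 0.374 at day 15 (limma adjusted p = 2.25e-06) and was 1.18 ± 0.146 in adipogenic cells (limma adjusted p = 2.6e-16 against osteogenic day 7). In adipogenic against osteogenic day 7 cells 3 of the 14 rose and 7 fell, beside 12.4% and 25.4% of all genes.

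Serpins of clades B and A3 include the intracellular inhibitors of granzymes, and all 14 listed genes passed the filter. Against osteogenic day 7, 8 rose and 3 fell in adipogenic cells, where 12.4% of all genes were higher and 25.4% lower. Serpinb9e reached 24.3 ± 3.94 RPKM against 0.341 ± 0.154 (log2 difference 4.23, limma adjusted p = 1.12e-11). Serpina3n and Serpinb9g rose there as well, by 3.93 and 3.26. Serpinb9, the inhibitor of granzyme B, measured 43.9 ± 2.82 in adipogenic and 26.1 ± 2.48 in osteogenic day 7 cells with vehicle. Serpinb6a, the most abundant of the list, went the other way. It measured 206.7 to 221.5 RPKM in adipogenic and 323.3 to 367.5 in osteogenic day 7 cells with vehicle. The 14 summed to 338.7 to 366.2 RPKM in the former and 372.2 to 420.4 in the latter. With VD3 in the differentiated states only Serpinb1a of this list was called, and it fell at osteogenic day 7 (log2 difference -0.69, limma adjusted p = 0.0234) and day 15 (-0.85, 0.0206).

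Of 18 transcription factors known at granzyme genes, 14 passed the filter. Runx1, whose family binds the motif capitalised in the sequences above, measured 18.2 ± 2.58 RPKM at osteogenic day 7, 10.53 ± 1.13 at day 15 and 0.707 ± 0.054 in adipogenic cells with vehicle. It fell from osteogenic day 7 to day 15 (log2 difference -0.73, limma adjusted p = 6.89e-05) and was lower in adipogenic cells (-3.48, 3.45e-17). With VD3, Vdr and Junb were the 2 called at osteogenic day 7, both higher, where 2.91% of all genes rose. Vdr measured 3.55 ± 1.09 with VD3 and 1.18 ± 0.485 with vehicle there (log2 difference 1.06, limma adjusted p = 0.000412). In adipogenic cells, where none of the proteases was called, Vdr also rose, from 0.779 ± 0.053 to 2.89 ± 0.318 RPKM (1.13, 0.000304).

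Markers of the blood cells that normally carry these proteases were measured beside them. The 23 markers of cytotoxic lymphocytes summed to 31.1 to 40.8 RPKM in the day 0 vehicle libraries, to 4.16 to 31.4 with VD3 and to 3.68 to 10.3 in the differentiated libraries. In the day 0 VD3 library with low background they summed to 4.16 RPKM, while Gzme there was 314. The highest at day 0 with vehicle were Klrk1 (3.53 to 6.54 RPKM) and Klrb1c (3.68 to 6.07), receptors of NK cells, then Fasl (up to 3.84) and Il2ra (up to 3.68). None of the 23 exceeded the 95th percentile of the olfactory receptor genes in any of the 24 libraries. Of the 23, 11 passed the filter and none of these was called in a tested comparison. Some passed only through day 0 libraries, as did Il2ra, which reached at most 0.808 RPKM in differentiated cells. With every value within the background, the absence of calls says little about these markers. A further look at 8 defining T and NK cell markers (Cd3e, Cd3d, Cd3g, Ncr1, Nkg7, Prf1, Gzma and Ptprc, set apart after the data were seen, only Ncr1 and Ptprc of them tested) found each at or under 2.60 RPKM. In the 3 osteogenic day 7 VD3 libraries 8 of their 24 values were listed at 0. Perforin (Prf1), the pore-forming protein through which granzymes enter target cells, measured 0.608 ± 0.525 RPKM at day 0 with vehicle.

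Of 19 mast cell and basophil markers 17 were in the tables, and they summed to 105.8 to 107.9 RPKM at day 0 with vehicle and to 48.8 to 70.8 with VD3. Il1rl1 and Hgf, which stromal cells also express, made up most of that sum. With VD3 at osteogenic day 7, where Gzme and Mcpt8 rose, 2 of these markers rose too, beside 2.91% of all genes. Kit, a receptor of mast cells and other progenitors, went from 2.43 ± 0.395 to 5.71 ± 0.563 RPKM (log2 difference 0.97, limma adjusted p = 0.000804). Fcer1g, a signalling chain of Fc receptors in many blood cells, went from 0.656 ± 0.548 to 4.93 ± 1.59 (1.86, 0.000596). The sum of the 17 was 64.0 to 69.8 RPKM with vehicle and 66.6 to 70.7 with VD3. The defining markers Fcer1a, Ms4a2, Cpa3, Hdc, Tpsb2, Prss34, Gata1 and Gata2 (also set apart afterwards) stayed at or under 0.982 RPKM each in these treated libraries, and 5 of their 24 values were listed at 0. At day 0 the same 8 markers summed to 11.4 to 15.8 RPKM with vehicle and 1.40 to 13.7 with VD3. Fcer1a, a chain of the IgE receptor, was the highest there at 7.03 ± 1.41 RPKM with vehicle, above Gzmc, and reached 8.76 with VD3. None of the 8 exceeded the 95th percentile of the olfactory receptor genes in a day 0 library. That level was 7.31 to 11.1 RPKM in 5 of the 6 day 0 libraries. Fcer1a exceeded it in 1 osteogenic day 7 and 1 osteogenic day 15 vehicle library. Among the full 17 markers, Cma1, Il1rl1 and Hgf exceeded it in at least 1 day 0 vehicle library. With VD3 at day 0, Kit and Fcer1g did so as well as these.

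Kit was called in the same direction as Gzme in each comparison where Gzme was called except VD3 at osteogenic day 15 (adjusted p = 0.333). It fell from osteogenic day 7 to day 15 (log2 difference -1.21, limma adjusted p = 2.82e-05) and was higher in adipogenic than osteogenic day 15 cells (1.39, 4.98e-07). The VD3 response of Kit was smaller in adipogenic than osteogenic day 7 cells (-1.11, limma adjusted p = 0.0153). Other markers of the list differed. Between the osteogenic days Hgf also fell (-1.15, limma adjusted p = 8.51e-07), while Il1rl1 rose (0.58, 0.00223). In adipogenic against osteogenic day 15 cells Kit was the 1 marker called higher. There 4 were lower, among them Il1rl1 (-5.005, limma adjusted p = 3.84e-19) and Hgf (-1.73, 7.62e-11). Of all genes 12.1% were higher and 26.3% lower in that comparison. At day 0 Kit measured 3.13 ± 0.877 RPKM with vehicle and 5.11 ± 0.28 with VD3. Fcer1g also rose with VD3 in adipogenic cells (1.48, limma adjusted p = 0.0102), where Gzme and Mcpt8 were not called. The part of these markers in the protease results was not tested.

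Markers of stromal cells, which the label of the cells names, were uneven. The 12 stromal genes summed to 1347 to 1643 RPKM at day 0, with Itgb1, an integrin chain, at 536 ± 19.8 and the collagen gene Col3a1 at 205 ± 7.64 with vehicle. In the day 0 vehicle libraries 9 of the 12 exceeded the olfactory receptor background in at least 1 library, and Thy1 (0.340 to 1.78 RPKM), Eng (0.362 to 0.991) and Nt5e (1.67 to 1.75), classical surface markers of MSC, did not. Thy1 and Eng did not pass the filter. The 12 summed to 2637 to 2802 at osteogenic day 7 and to 428.7 to 437.6 at adipogenic day 7 with vehicle. The 15 macrophage and granulocyte markers in the tables summed to 10.7 to 27.0 RPKM at day 0 and to 7.60 to 17.6 elsewhere. Cd14 and Itgb2 exceeded the olfactory receptor background in each osteogenic group. None of the 8 that passed the filter was called with VD3 in the osteogenic states. In adipogenic cells Lyz2 fell with VD3 (log2 difference -1.12, limma adjusted p = 0.0463), as did 0.574% of all genes. With vehicle, 3 of the 8 were higher and 2 lower in adipogenic than osteogenic day 7 cells. Of all genes 12.4% were higher and 25.4% lower there.

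The genes with the most similar profile were sought by Pearson correlation with the mean standardised profile of the 6 over the 24 libraries, among 4869 genes with a group mean of at least 20 RPKM. Dio3, a deiodinase that inactivates thyroid hormone, came first (r = 0.970). It measured 23.5 ± 4.12 RPKM at day 0 and 1.26 ± 0.386 at osteogenic day 7 with vehicle, and 23.9 ± 2.16 and 2.95 ± 0.314 with VD3. LOC100504289 (r = 0.940), LOC100504310 (0.928), Khnyn (0.920) and Sfi1 (0.897) followed. Khnyn lies beside the chymase end of the locus, with 1 protein-coding gene, Sdr39u1, between it and Cma1. Khnyn measured 16.9 ± 1.57 RPKM at day 0 with vehicle, 22.1 ± 0.95 with VD3 and 6.18 to 8.39 in the differentiated groups. The libraries share depth and background. With the background subtracted the first was Npc2 (r = 0.876), with Dio3 second (0.860). The 2 LOC genes were then at ranks 100 and 96 and Sfi1 at rank 192. Khnyn no longer reached a group mean of 20 RPKM and was not compared there. Over the 18 differentiated libraries alone, the first was Itpr2 (r = 0.834), a calcium channel gene that measured 9.15 ± 0.974 RPKM at osteogenic day 7 with vehicle and 26.5 ± 4.03 with VD3.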

How the data were processed

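Ribosome-depleted, directional total RNA libraries were sequenced by the authors, and reads were aligned with TopHat to mm9, per the submitters' processing notes. The deposited values are RPKM per transcript; the counting tool, annotation and treatment of reads with several matches are not given in the sources used here. Values were summed by symbol (each of the 6 genes has 1 transcript), and 40 rows whose symbols had become dates were left out. Depth was estimated from 150 low values of olfactory receptor genes a library, of which 73.3 to 87.3% lay within 0.1 of a whole read, so read numbers are approximate.

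The test took the 21097 genes that reached 1 RPKM in 3 or more libraries. R 4.3.3 with limma 3.58.1 fitted the 8 groups over 24 libraries to log2 values after adding a pseudocount of 1 RPKM, with the trend and robust options of empirical Bayes, and p-values were adjusted by Benjamini-Hochberg within each of 8 comparisons. All 6 genes passed this filter, Gzmf and Gzmg only through day 0 libraries. The test was checked on simulated data. Sequences and gene order came from RefSeq (GRCm38.p6) and transcripts for identities from GENCODE M21, which differ from the build of the values. Python 3.11.15, numpy 2.4.6, pandas 2.3.3, matplotlib 3.10.9 and Biopython 1.88 were used. Alternatives were a pseudocount of 0.1, no filter or one at 5 RPKM, median-ratio and quantile scaling, subtraction of the olfactory receptor median, the largest transcript, plain empirical Bayes, a replicate term, only the libraries compared, VD3-treated libraries and leaving out each library. A fit without the day 0 libraries was added after seeing the data. The 6 genes and the gene lists were chosen with earlier results of these data known. Besides the 6 genes, the text names up to 4 genes of each list with the highest mean, up to 3 called genes with the largest differences, and the 5 most similar profiles.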

Additional observations from a re-analysis of the deposited data

Results flagged for a closer look

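The VD3 response of Gzme differed between states by a test of the difference itself. It was lower at adipogenic day 7 than at osteogenic day 7 by a log2 difference of -2.06 (limma adjusted p = 0.0155), with 3 of 3 treated libraries above all vehicle libraries in the osteogenic cells and treated values on both sides of the vehicle values in the adipogenic cells.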

How the results depend on the processing

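Of 593 recomputed values of the tested comparisons, 539 kept their direction and their side of the threshold, 25 lost and 7 gained a call, and 22 changed sign. With a pseudocount of 0.1, 1 gene rose with VD3 at osteogenic day 7 (3 in the report) and 0 were lower in adipogenic than osteogenic day 7 cells (1). Quantile normalization left 1 gene lower at osteogenic day 15 than day 7 (2). With a background subtracted, 1 gene was higher in adipogenic cells than at osteogenic day 15 (2) and 2 rose with VD3 at osteogenic day 15 (1). A fit on only the libraries compared gave 1 and 0 for the same comparisons. With VD3-treated libraries, 3 genes were lower in adipogenic than osteogenic day 7 cells, and against osteogenic day 15 0 were higher and 1 lower. Leaving out 1 library gave 1 to 2 genes lower at osteogenic day 15 than day 7, 1 to 2 higher in adipogenic cells than at osteogenic day 15, 2 to 3 raised by VD3 at osteogenic day 7, 0 to 1 at osteogenic day 15, and 0 to 2 with a smaller response in adipogenic than osteogenic day 7 cells. The cause was not tested.

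Of 371 values of the day 0 differences, which have no test, 61 moved by more than the spread between replicates and none changed sign.

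Some small differences changed sign on the log2 scale. For Mcpt8 in adipogenic against osteogenic day 15 cells, 0.081 was found with a pseudocount of 0.1, 0.03 with median-ratio scaling and -0.561 to 0.095 when 1 library was left out. For Mcpt8 with VD3 in adipogenic cells, it was -0.544 (pseudocount 0.1) and -0.523 to 0.473 (1 library left out), and its difference between osteogenic days was 0.511 (pseudocount 0.1). Gzmc from osteogenic day 7 to day 15 was 0.011 with a background subtracted and -0.329 to 0.185 with 1 library left out. In adipogenic cells Gzmc was -0.158 (background subtracted) and -0.221 (VD3-treated) against osteogenic day 7 and -0.168 (background subtracted) against day 15, and its VD3 difference at osteogenic day 15 was -0.03 to 0.485 with 1 library left out. In adipogenic against osteogenic day 7 cells, Gzmd was -0.261 (background subtracted), -0.906 (VD3-treated) and -0.069 to 0.248 (1 library left out), and Gzme -1.766 (VD3-treated). With 1 library left out, Gzme was -0.878 to 0.024 for the difference between osteogenic days and -0.414 to 0.02 for VD3 in adipogenic cells. Apart from the 2 VD3-treated values of Gzme and Gzmd in adipogenic against osteogenic day 7 cells, none of these sign changes passed the threshold.

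Replicate numbers are shared between groups in the labels. The libraries' deviations correlated by only -0.095 to 0.166 between same-numbered libraries, so no pairing by number was seen. Over all tested genes, many of them at background, this measure cannot show that there is none. A fit with the replicate number as a block gave 3 genes raised by VD3 at osteogenic day 7, 1 at day 15 and 0 in adipogenic cells, as without it, and changed no other count. Leaving out the day 0 libraries changed no count. The filter at 5 RPKM leaves 4 of the 6 genes, since Gzmf and Gzmg do not reach it. Median-ratio scaling moved the median of all genes by 0.13 and 0.16 in adipogenic against osteogenic day 7 and day 15 cells, and quantile normalization by 0.53 to 0.78 in comparisons with day 0 and by 0.29 for VD3 at day 0. Read numbers are estimates, and values under 3 reads cannot be told from 0.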
